A study of Homo sapiens with 6 samples.

Results

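The genes described here are 10 nuclear genes whose products keep mitochondrial DNA, transcribe it and control the stability of its RNA. They were found by matching the Ensembl gene identifiers of the deposited files to the GENCODE 29 symbols TFAM, POLRMT, TFB1M, TFB2M, TEFM, POLG, LRPPRC, SLIRP, PNPT1 and SUPV3L1, and all 10 were present among the 25969 genes listed. The 6 RNA sequencing libraries were made from a human prostate cancer line with the label LNCaP. Of these, 3 came from cells transfected to overexpress VIM-AS1, the noncoding transcript named as antisense to the vimentin gene VIM. The other 3 came from cells transfected with pcDNA3.1, a plasmid vector, with the genotype label WT, and these are the controls. Both groups are thus transfected cells of 1 line, and no time after transfection or number of cultures is stated, so each p-value reflects the variation among libraries alone, part or all of which may be technical.

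Human mitochondrial DNA encodes a small set of respiratory chain subunits together with the rRNAs and tRNAs needed to translate them, while every protein that copies, transcribes and degrades this genome and its RNA is imported from the cytosol. Transcription begins when TFAM bends the promoter DNA and TFB2M helps the RNA polymerase POLRMT to open it, and TEFM then allows elongation over the whole circle. The long transcripts are cut into single RNAs, which LRPPRC and SLIRP protect and which the complex of PNPT1 and SUPV3L1 degrades.

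Recovered reads per library ranged from 14762893 to 19889745, and the members held between 22 and 7174 reads in a library, the lowest being TEFM in control replicate 2. VIM-AS1 had 5.13 ± 3.72 normalized reads in control cells (SD, n = 3) and 2326 ± 388 after overexpression. Defining markers of the labelled line were in part absent. KLK3, which encodes prostate-specific antigen and is abundant in LNCaP cells, had at most 2 reads in any library, and FOLH1, which encodes prostate-specific membrane antigen, at most 4. The prostate gene HOXB13 (685.9 ± 132 and 616.6 ± 187) was present in overexpression and control libraries, and VIM was at 5236 ± 258 and 6393 ± 647. The luminal keratin genes KRT8 (75797 ± 21557 and 80912 ± 23113) and KRT18 (25207 ± 7734 and 28896 ± 9023) were abundant. KLK2 and TMPRSS2 were not analysed here. With KLK3 and FOLH1 nearly absent and VIM abundant, the markers go in part against the label, so the identity of the line is in doubt and the cells are called by their label only. Of 11 marker genes of other cell types 9 were listed and 7 tested, of which VWF rose and DCN, COL1A1 and TP63 fell in the test described next. Without its term limma called none of the 7, with 3 at an unadjusted p under 0.05, and in replicates 1 and 2 alone it called 1, lower. Their summed level was 1041 to 1525 normalized reads in the overexpression libraries and 1718 to 1936 in the controls, most of it COL1A1. PECAM1 and CD68 had no reads in any VIM-AS1 library, and CHGA and KRT5 had at most 2 and 4 reads in any library, PTPRC and CD3E were not analysed here, and the part of these markers in the results below was not tested.

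Replicate 3 of either group was unlike replicates 1 and 2, more clearly so in the VIM-AS1 group. Distance between libraries was taken as chi-square per degree of freedom on recovered reads. VIM-AS1 replicates 1 and 2 were at 7.14 from each other, and at 45.5 and 69.2 from replicate 3. Control replicates 1 and 2 were at 41.4 from each other, and at 65.4 and 62.2 from replicate 3. Control replicates 1 and 2 thus also differed, which a term for the third libraries does not cover. Members with little GC in their transcripts were mostly higher in it and members rich in GC lower, and the shift had the same sign in both groups for 8 of 10 members, all but SLIRP and TFB1M. POLRMT, at 66.3% GC, differed by -0.74 log2 units between the third VIM-AS1 library and the mean of the first and second, and by -0.72 in the controls. PNPT1, at 40.8% GC, differed by 0.99 and 0.97, and TFAM, at 38.4%, by 1.07 and 0.64. SLIRP, at 39.4% GC, did not share the shift, with 0.07 in the VIM-AS1 group and -0.36 in the controls. The main test was therefore limma on log2(value + 1) with a term for the third libraries, and "rose" and "fell" below mean a Benjamini-Hochberg adjusted p under 0.05 in that fit over all 20927 tested genes. The term was chosen from these same data, so its p-values may be too small. Without it limma called none of the members or of the genes of any list described below.

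**Figure D1:**
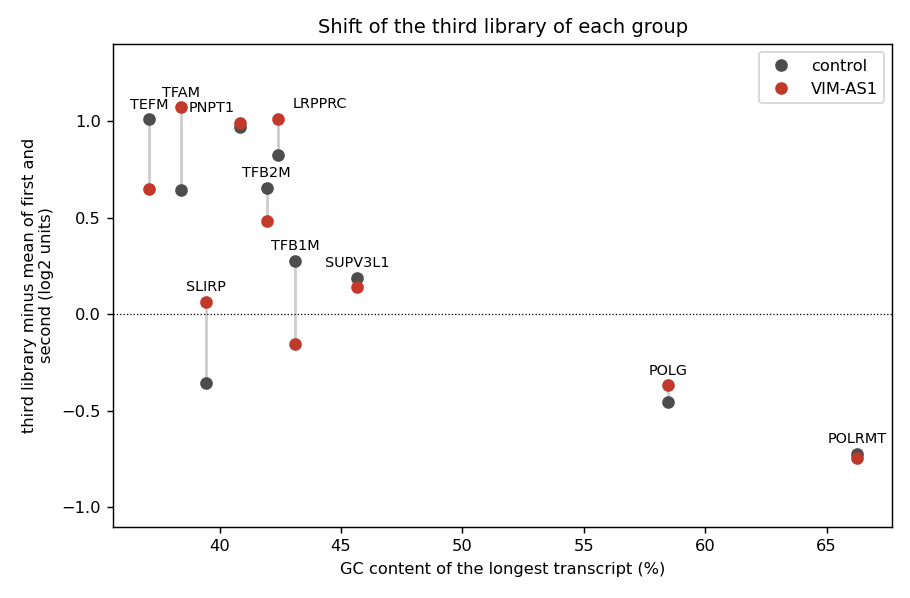
Difference between the third library and the mean of the first and second of the same group (vertical axis, log2 units) against the GC content of each gene's longest transcript (horizontal axis, percent), with 1 grey and 1 red point for each of the 10 genes. POLRMT and POLG lie below 0 in both groups, while TFAM, TEFM, PNPT1 and LRPPRC lie at 0.64 or more.

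Of the 10 members, 4 rose with VIM-AS1 overexpression, none fell and 6 did not pass. POLG, TFB2M, PNPT1 and SUPV3L1 were the ones that rose, by 1.64-fold, 1.44-fold, 1.43-fold and 1.24-fold. In the same fit 19.4% of all tested genes were called, with 11.5% higher and 7.94% lower. A stricter filter kept 14183 genes, those with 10 or more reads throughout either group. Of these 29.9% were called, 2553 genes higher and 1689 lower, and the same 4 members were called. So 4 of 10 members stood closer to the background once genes with few reads were left out. The median log2 fold change was 0.28 over the members and -0.02 over all tested genes, and 9 of 10 members had a positive value, LRPPRC being the exception. Values of VIM-AS1 and control libraries did not overlap for POLG and SUPV3L1, 2 of 10 members, against 9.50% of all tested genes that lay wholly above the controls.

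Without the term limma called 0 members among the 0.0239% of genes it called, and 1 member, POLG, had an unadjusted p under 0.05. On the recovered reads, edgeR without the term also called 0 members, with 0.0191% of all genes, and DESeq2 called 0 with 1.69%, each with 1 member at an unadjusted p under 0.05. A block for the replicate number also sets the third libraries apart, as the term does. With it in place of the term, the same 4 members were called by limma among 26.6% of all genes. In the first and second libraries alone POLG passed, 1 of 10, against 5.31% of all genes. With the term, leaving out VIM-AS1 replicate 3 left 0 of 10 members called by limma (4 at an unadjusted p under 0.05), with 1.37% of all genes. Only POLG remained called when VIM-AS1 replicate 1 (13.9% of all genes), control replicate 2 (18.4%) or control replicate 3 (2.98%) was left out.

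The scaling of the libraries also mattered. Dividing by library size left POLG as the called member (15.3% of all genes). Dividing by the reads outside the mitochondrial genome did so too (16.9%), and moved the median of all tested genes by -0.14 log2 units. Under that scaling 36.9% of called genes were higher, against 59.1% with the deposited scaling, and the members' median was 0.14 while that of all genes was -0.16.

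**Figure D2:**
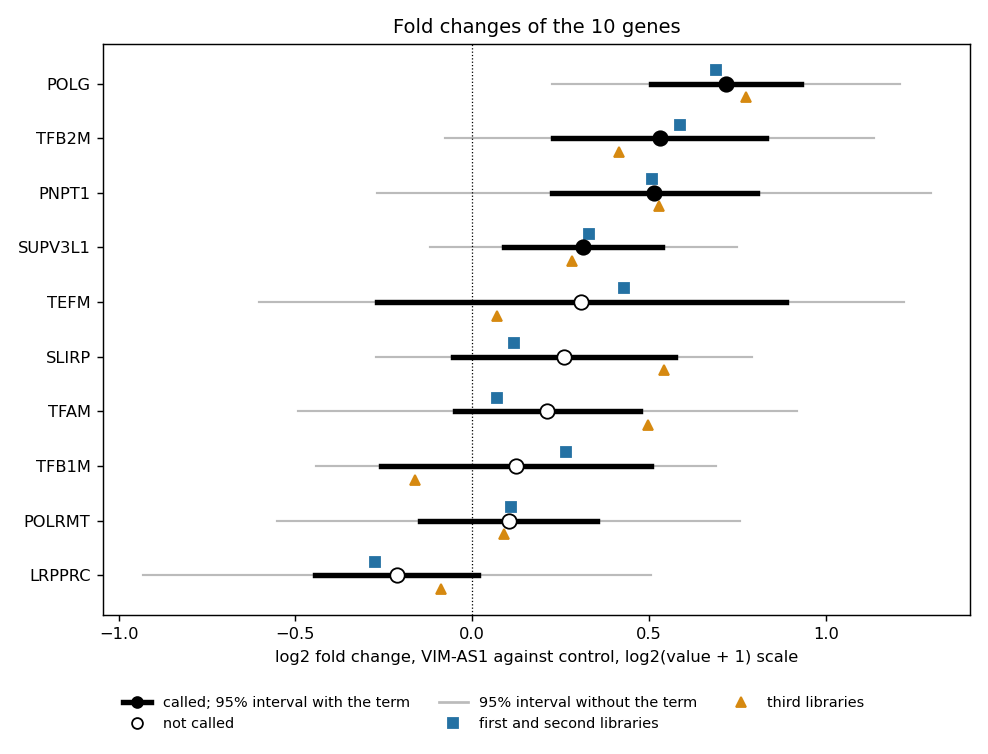
Log2 fold change of each gene between VIM-AS1 and control libraries (horizontal axis, log2(value + 1) scale). Circles are the estimates over 6 libraries, filled where the adjusted p was under 0.05 with the term for the third libraries. Black bars are its 95% intervals, grey bars those without the term, squares the first and second libraries and triangles the third. POLG, TFB2M, PNPT1 and SUPV3L1 are filled, and TFB1M is the gene whose square and triangle lie on opposite sides of 0.

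The DNA polymerase gene POLG had the largest difference. POLG encodes the catalytic subunit of the polymerase that copies mitochondrial DNA, and is found on chromosome 15, minus strand, at 89305198 to 89334861 (GRCh38, ENSG00000140521). It stood at 2506, 2803 and 2054 normalized reads in VIM-AS1 replicates 1 to 3 and at 1567, 1725 and 1199.8 in control replicates 1 to 3. Every VIM-AS1 library was above every control, although the third library was the lowest of its group in both. Its log2 fold change was 0.72 ± 0.10 (SE; limma with the term, adjusted p = 7.10e-05), and without the term the adjusted p was 0.20. Over same-numbered libraries the differences were 0.68, 0.70 and 0.78. The labels do not state that same-numbered libraries are pairs, here or below. The call was lost without VIM-AS1 replicate 3 (adjusted p = 0.052) and kept in the other 5 of 6 fits that left out a library. Exons of POLG share 458 bp, or 7.66% of their length, with exons of FANCI on the opposite strand. Whether counting used strand is not stated, so reads in that stretch cannot be assigned with certainty, and FANCI itself was at 684.3 ± 157 and 669.8 ± 151 (log2 fold change 0.03, adjusted p = 0.89).

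TFAM did not pass. It encodes the protein that packs mitochondrial DNA into nucleoids and also starts transcription, and the gene is found on chromosome 10, plus strand, at 58385022 to 58399221. Its values were 489.9, 421.3 and 955.8 in the VIM-AS1 libraries and 464.3, 403.2 and 676.9 in the controls. The first and second libraries of the groups were nearly level, and the third VIM-AS1 library was the highest of all. This gave a log2 fold change of 0.21 with a 95% interval from -0.05 to 0.47 (limma with the term, adjusted p = 0.26). Among 9757 other genes whose mean reached 100, the profiles nearest to that of TFAM over the 6 libraries were those of COX11, ACSL3 and RAB10, at Euclidean distances of 0.11, 0.13 and 0.13 log2 units between profiles centred on their own means.

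Promoter sequence is shown for TFAM and for the 3 other members that share a motif with it, because 1 of these 4 genes rose and 3 did not pass. RefSeq windows of 300 bases, 250 before and 50 after the start site (GRCh38.p14), were found for all 10 members and searched on both strands for the core of the site bound by the transcription factor NRF1, GCGCNTGCG, and for the ETS core CCGGAAG, which GABP recognises. The NRF1 core was in the windows of 4 members, TFAM, POLRMT, TFB1M and TFB2M, and in 7.47% of 35116 windows of that length. The ETS core was in those of 4 members, POLRMT, TFB1M, TEFM and SLIRP, and in 10.3% of all windows. The 150 bases before the start are printed below from 5′ to 3′ on the gene's own strand, with matches to either core in capitals. The windows are chr10:58385260-58385409 on the plus strand for TFAM and, on the minus strand, chr19:633538-633687 for POLRMT, chr6:155314485-155314634 for TFB1M and chr1:246566262-246566411 for TFB2M.
TFAM: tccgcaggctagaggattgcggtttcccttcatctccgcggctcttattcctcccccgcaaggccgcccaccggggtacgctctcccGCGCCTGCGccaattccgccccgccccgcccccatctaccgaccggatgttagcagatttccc
POLRMT: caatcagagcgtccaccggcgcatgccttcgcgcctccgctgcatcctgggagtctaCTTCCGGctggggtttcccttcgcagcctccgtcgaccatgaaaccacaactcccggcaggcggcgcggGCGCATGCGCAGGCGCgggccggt
TFB1M: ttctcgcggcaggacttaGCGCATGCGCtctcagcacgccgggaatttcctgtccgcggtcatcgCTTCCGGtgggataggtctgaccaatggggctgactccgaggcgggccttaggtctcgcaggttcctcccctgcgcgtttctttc
TFB2M: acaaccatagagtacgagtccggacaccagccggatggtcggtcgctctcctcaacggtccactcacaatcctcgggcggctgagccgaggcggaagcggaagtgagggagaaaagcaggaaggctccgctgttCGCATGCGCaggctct

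In TFB2M the NRF1 core lies from 16 to 8 bases before the start, at positions -16 to -8. In POLRMT 3 overlapping matches span -24 to -9 and the ETS core spans -93 to -87. In TFB1M a pair of overlapping matches on opposite strands spans -132 to -123, with an ETS core at -85 to -79, and TFAM has its match at -63 to -55. These matches are letters in a window and not measured binding. Neither core was found in the windows of POLG, LRPPRC, PNPT1 and SUPV3L1, 3 of which rose. NRF1 itself, the activator named for its control of respiratory chain genes, rose from 283.0 ± 54.5 to 486.2 ± 75.0 (log2 fold change 0.79 ± 0.12, limma with the term, adjusted p = 0.000131, and 0.19 without it). Any relation of these cores or of NRF1 to the changes of the members was not tested.

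TFB2M rose, and its paralogue TFB1M did not pass. TFB2M, which melts the promoter together with the polymerase, is found on chromosome 1, minus strand, at 246540560 to 246566324. Its values were 264.4, 235.1 and 348.9 in the VIM-AS1 libraries and 187.0, 146.6 and 261.4 in the controls. The third control lay between the VIM-AS1 libraries, so the groups overlapped. VIM-AS1 replicates 1 and 2 were each above control replicates 1 and 2, and VIM-AS1 replicate 3 was above control replicate 3. The log2 fold change was 0.53 ± 0.14 (limma with the term, adjusted p = 0.013, and 0.43 without it), while replicates 1 and 2 gave 0.59 and replicate 3 gave 0.42. TFB1M, whose protein methylates the rRNA of the small mitochondrial ribosomal subunit, is found on chromosome 6, minus strand, at 155257509 to 155314493. It had 124.3, 154.8 and 124.8 against 132.4, 100.2 and 139.8 normalized reads. Its groups overlapped, with a log2 fold change of 0.12 and a 95% interval from -0.26 to 0.51 (adjusted p = 0.70). The difference between these paralogues was not tested. Exons of TFB1M share 215 bp with those of TIAM2 on the opposite strand, a gene with a mean of 18.2 normalized reads over all libraries.

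The polymerase gene POLRMT and the elongation factor gene TEFM did not pass. POLRMT, on chromosome 19 (minus strand, 617224 to 633604), had 5654, 7029 and 3769 normalized reads in the VIM-AS1 libraries and 5124, 6668 and 3540 in the controls. The spread within a group was far wider than the distance between the groups, with the third library the lowest of both. Differences between same-numbered libraries were 0.14, 0.08 and 0.09 log2 units. The log2 fold change was 0.10 with a 95% interval from -0.15 to 0.35 (limma with the term, adjusted p = 0.61). It was 0.20 (adjusted p = 0.044) by limma with the replicate block and GC and length trends removed, a fit added after the values were seen. A pseudogene, POLRMTP1, was listed at 106.6 ± 33.6 and 132.1 ± 92.7, so reads may have been divided between the copies. TEFM, on chromosome 17 (minus strand, 30897336 to 30906820), was the member with the fewest reads, at 45.3, 60.7 and 82.9 against 55.6, 26.9 and 79.0. Its exons share 301 bp with those of ADAP2 on the opposite strand, which averaged 7.24 normalized reads, and 542 bp with an antisense gene that was not analysed here. Its interval was the widest, from -0.27 to 0.89 around 0.31 (adjusted p = 0.49), so a change of the size seen in POLG could not be told from none at this depth.

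Neither gene of the RNA-binding complex that protects mitochondrial mRNAs passed, and their estimates had opposite signs. LRPPRC encodes a pentatricopeptide protein that holds these mRNAs open for polyadenylation and translation, and is found on chromosome 2, minus strand, at 43886508 to 43996005. It stood at 965.1, 776.9 and 1749 in the VIM-AS1 libraries and at 1086, 1013 and 1858 in the controls. Each VIM-AS1 library was below the control of its own number, with differences of -0.17, -0.38 and -0.09 log2 units, while the third libraries were far above the others. Its log2 fold change was -0.21 with a 95% interval from -0.44 to 0.02 (limma with the term, adjusted p = 0.20). After removal of each library's trends with GC content and length it was -0.28, with an adjusted p of 0.028.

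SLIRP, the small partner that LRPPRC needs for stability, is found on chromosome 14, plus strand, at 77708071 to 77761104. It had 857.6, 953.3 and 946.5 normalized reads against 1079, 642.6 and 650.03. The first control was the highest library of all and the other controls the lowest. This gave a log2 fold change of 0.26 with a 95% interval from -0.06 to 0.57 (limma with the term, adjusted p = 0.26). It was 0.47 (adjusted p = 0.010) after removal of the GC and length trends and 0.51 (adjusted p = 0.000457) without control replicate 1. Exons of SLIRP share 118 bp with SNW1 on the opposite strand, which was at 620.3 ± 155 and 620.9 ± 198.

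**Figure D3:**
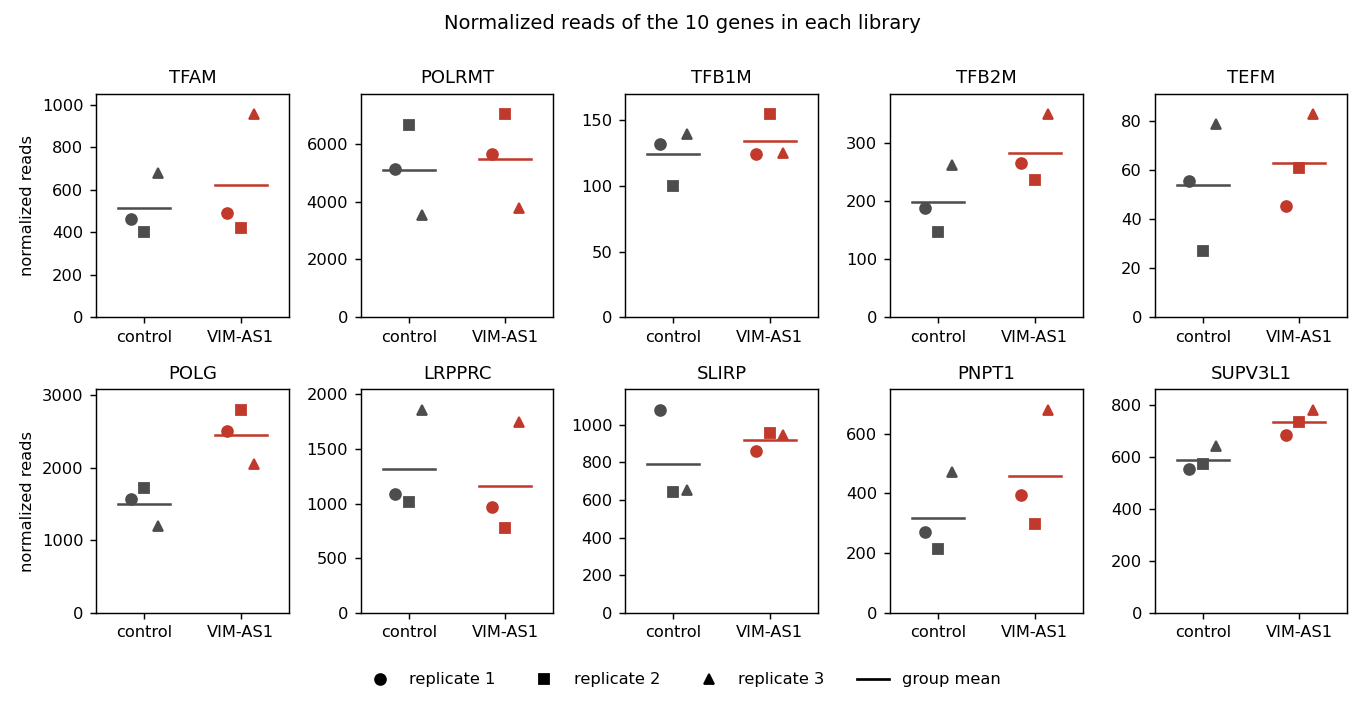
Normalized reads of each of the 10 genes in every library (vertical axes from 0, a scale for each gene), with control libraries in grey and VIM-AS1 libraries in red. Symbols are replicate numbers and lines are group means. POLG and SUPV3L1 have no overlap between groups, and the triangles of the third libraries are the highest of both groups for TFAM, TFB2M, TEFM, LRPPRC, PNPT1 and SUPV3L1.

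Both genes of the mitochondrial RNA degrading complex rose. PNPT1 encodes polynucleotide phosphorylase, an exoribonuclease, and is found on chromosome 2, minus strand, at 55634265 to 55693910. It had 394.0, 295.9 and 680.5 normalized reads in the VIM-AS1 libraries and 270.5, 212.6 and 471.5 in the controls. The groups overlapped because the third control lay above the first and second VIM-AS1 libraries. VIM-AS1 replicates 1 and 2 were each above control replicates 1 and 2. Differences between same-numbered libraries were 0.54, 0.48 and 0.53 log2 units. Numbers 1 and 2 cannot be shown to mark pairs, so the closeness of these values depends on the numbering. The log2 fold change was 0.51 ± 0.14 (limma with the term, adjusted p = 0.012, and 0.58 without it). PNPT1 is also known as an interferon-stimulated gene.

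SUPV3L1 encodes the RNA helicase that unwinds substrates for PNPT1, and is found on chromosome 10, plus strand, at 69180232 to 69209099. It was at 683.8, 732.9 and 780.8 in the VIM-AS1 libraries and at 553.5, 573.0 and 641.3 in the controls. All VIM-AS1 libraries were above all controls, and the spread within each group was the narrowest of the members that rose, relative to the mean. Its log2 fold change was 0.31 ± 0.11 (limma with the term, adjusted p = 0.045, and 0.53 without it). This call lay at the threshold. It was lost with edgeR on the recovered reads (adjusted p = 0.0502), with DESeq2 (0.0563), without a filter on low values (0.0521), with GC and length trends removed (0.0526), with both scalings to library size, and in all 6 fits that left out a library, where the estimates ran from 0.28 to 0.34. TFB2M and PNPT1 kept their calls in 2 of these 6 fits each, those without VIM-AS1 replicate 2 and without control replicate 1.

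Levels were compared between members as reads per kilobase of exon scaled to library size (RPKM), a scale on which POLRMT was the highest. It reached 57.9 ± 9.0 (SD, n = 3) in the controls, followed by SLIRP at 18.0 ± 5.75, POLG at 14.7 ± 0.593, LRPPRC at 8.41 ± 4.38 and SUPV3L1 at 8.32 ± 1.96. Then came TFB2M at 6.65 ± 3.02, TFAM at 5.68 ± 2.52, PNPT1 at 3.89 ± 2.29, TFB1M at 2.77 ± 0.864 and TEFM at 1.05 ± 0.651. Neighbours in this order kept it in all 6 libraries except SLIRP and POLG, where SLIRP was higher in 3 of 6, LRPPRC and SUPV3L1, where LRPPRC was higher in 1 of 6, and SUPV3L1 and TFB2M, with SUPV3L1 higher in 5 of 6. In the VIM-AS1 libraries POLG stood at 23.2 ± 0.706 and SLIRP at 20.1 ± 3.25. Exon lengths were the union of all GENCODE 29 transcripts, which for SLIRP is 2631 bp against a longest transcript of 865 bp, so its level per length is a low estimate. The union also exceeds the longest transcript for every other member except TFB2M (1848 bp in both). The lengths are 2736 and 1424 bp for TFB1M, 4283 and 2484 bp for SUPV3L1, 9760 and 6335 bp for LRPPRC, and 3224 and 2109 bp for TEFM. They are 5124 and 3835 bp for POLRMT, 5980 and 4668 bp for POLG, 5134 and 4411 bp for PNPT1, and 5606 and 5414 bp for TFAM. The order of members with close levels therefore depends on the length used.

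The RNAs that these proteins make and maintain were lower in the same libraries. Genes of the mitochondrial genome took 7.06%, 6.86% and 5.57% of reads in the VIM-AS1 libraries and 8.73%, 14.3% and 11.8% in the controls, without overlap (p = 0.1 in a two-sided exact permutation test, which cannot go lower with 3 against 3). Of the 13 mRNAs 10 fell in the fit with the term and none rose, with a median log2 fold change of -0.70, and without the term limma called 0 of 13, with 5 at an unadjusted p under 0.05, and in replicates 1 and 2 alone 2 of 13 were called lower. With the term, limma called 0 of 13 without VIM-AS1 replicate 3 (3 at an unadjusted p under 0.05) and 1 without control replicate 3. The count lower was 7 with GC and length trends removed, where 21.4% of all genes were called, and 7 with DESeq2 (16.7%), but 13 with edgeR (20.1%) and 13 with the replicate block. In bulk RNA, fewer mitochondrial genomes in a cell and less RNA from each cannot be told apart, nor can fewer cells of a kind and less RNA per cell. Of the 12 mRNAs copied from the heavy strand promoter 9 fell, with a median of -0.72. MT-ND6, the mRNA of the other strand, fell as well, from 12946 ± 3760 to 8177 ± 1900 (log2 fold change -0.65 ± 0.12, adjusted p = 0.000653, and 0.35 without the term). Because strand was not known to be kept, reads antisense to MT-ND6 may be counted with it. The rRNA genes MT-RNR1 (-0.03, adjusted p = 0.93) and MT-RNR2 (-0.52, adjusted p = 0.052) did not pass in the fit with the term. MT-RNR2 lay at the threshold, from 101486 ± 17294 to 70808 ± 13377 normalized reads without overlap of the groups, and was called lower with the replicate block (adjusted p = 0.00284), with GC and length trends removed (0.0473), with edgeR (0.00502), with DESeq2 (0.000104) and under each of the 3 other scalings. Without the term its adjusted p was 0.49.

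Control replicate 2 had both the largest share of mitochondrial reads and the lowest level of 6 of the 10 members, TFAM, TFB1M, TFB2M, TEFM, SLIRP and PNPT1. Summed over the 12 heavy strand mRNAs it held 2618344 normalized reads, against 1358250 and 1563797 in control replicates 1 and 3 and 764674 to 1227760 in the VIM-AS1 libraries. Without control replicate 2 the share of mitochondrial reads still differed by -3.80 percentage points, against -5.12 with all libraries, and the members' median log2 fold change was 0.20.

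Other nuclear genes of mitochondrial gene expression were more often higher than lower. In 9 lists with 174 genes, all of them tested, 52 rose and 4 fell in the fit with the term, and the median log2 fold change was 0.20. The 4 that fell were PRIMPOL, SLC25A36, MPV17 and MRPL41. Higher calls made up 29.9% of these genes, against 11.5% of all tested genes. With the stricter filter on reads, 2553 of 14183 genes were called higher, a larger share, so 11.5% is a low background for well-read genes. Without the term limma called 0 of the 174 genes, with 17 at an unadjusted p under 0.05. In the first and second libraries alone it called 10 higher and 0 lower (5.75%, against 5.31% of all genes). Without VIM-AS1 replicate 3 the counts were 1 and 0, without control replicate 3 they were 6 and 0, and without VIM-AS1 replicate 2, where 12.3% of all genes were called, 27 and 3. With library size scaling 31 rose and 4 fell, where 1722 of all 21071 tested genes were called higher and 1494 lower. With scaling to reads outside the mitochondrial genome 23 rose and 10 fell, with a median of 0.05. Under that scaling 1315 of all 21087 tested genes were called higher and 2246 lower, with a median of -0.16.

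Genes for the copying of mitochondrial DNA and its nucleoid counted 7 higher and 1 lower of 14. RNASEH1, which removes RNA primers, rose from 332.5 ± 36.5 to 574.8 ± 12.2 (log2 fold change 0.79 ± 0.12, with adjusted p = 0.000124 by limma with the term and 0.14 without it), and TWNK, the replicative helicase that works ahead of POLG, rose by 0.60 ± 0.11. PRIMPOL, a primase, fell by 1.13 on the log2 scale, from 53.8 ± 24.5 to 24.4 ± 11.7. The list's median of 0.32 was above its mean of 0.14. Of 10 genes of nucleotide supply SLC25A33, a pyrimidine carrier of the inner membrane, rose by 0.71 ± 0.13, SLC25A36 and MPV17 fell, with log2 fold changes of -0.53 and -0.38, and 7 did not pass. The median of that list was 0.06, and -0.08 with scaling to reads outside the mitochondrial genome, where that of all tested genes was -0.16. None of the 4 genes of the MTERF family, which bind mitochondrial DNA and rRNA, passed with the term in limma, although 2 had an unadjusted p under 0.05, and 0 passed with edgeR or DESeq2. With the replicate block 1 of them was called higher and 1 lower.

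Among 22 genes of mitochondrial RNA processing and turnover 6 rose and none fell. They included PDE12, which removes poly(A) tails (0.67 ± 0.15), ELAC2, which trims the ends of tRNAs (0.48 ± 0.11), and FASTKD2 (0.48 ± 0.16). Of 20 genes of RNA modification 5 rose and none fell, NSUN2, a methyltransferase of tRNAs, from 2199 ± 43.3 to 3740 ± 208, and MRM2 (0.40 ± 0.11) and CDK5RAP1 (0.39 ± 0.11) by less. Of 14 translation factors MRPL58, TACO1 and GFM1 rose, by 0.50 ± 0.13, 0.44 ± 0.11 and 0.37 ± 0.11. The medians of these lists were 0.15, 0.26 and 0.12. With scaling to reads outside the mitochondrial genome they were 0.01, 0.12 and -0.03, where that of all tested genes was -0.16.

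Of 48 genes of the large mitochondrial ribosomal subunit 16 rose and MRPL41 fell, and of 30 of the small subunit 10 rose and none fell. MRPL12, which is also described as a partner of POLRMT, stood at 899.2 ± 183 against 557.1 ± 477 (log2 fold change 1.05 ± 0.27). Replicates 1 and 2 gave 0.57 and replicate 3 gave 2.01, and between the libraries numbered 1 the difference was -0.28. MRPS7 rose from 782.4 ± 161 to 1327 ± 123 and MRPS23 from 569.9 ± 23.6 to 816.7 ± 67.5, both without overlap of the groups. Of 12 regulators of mitochondrial biogenesis 4 rose and none fell. Besides NRF1 these were its cofactor gene HCFC1 (0.70 ± 0.14), PPARGC1B, a coactivator of the PGC family (0.62 ± 0.16), and GABPB1, a subunit of GABP. The lists' medians were 0.25, 0.20 and 0.15. With scaling to reads outside the mitochondrial genome 2 of the 12 regulators rose and 2 fell, against 1315 higher and 2246 lower of all 21087 tested genes.

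**Figure D4:**
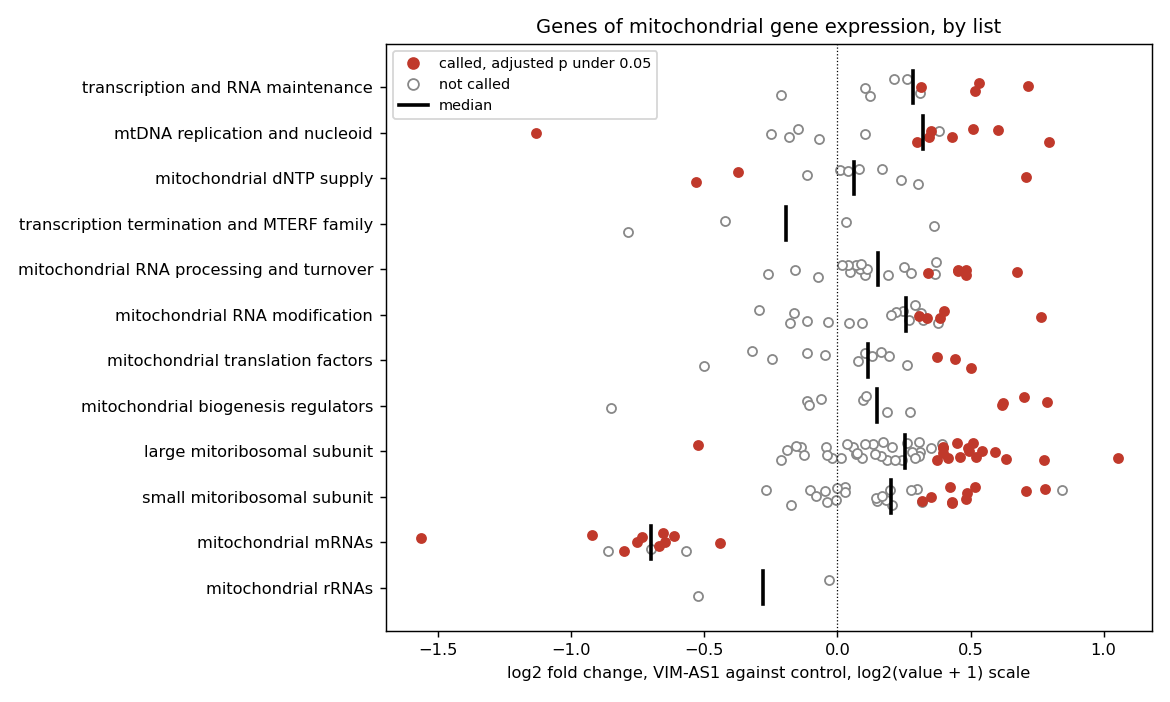
Log2 fold changes (horizontal axis, log2(value + 1) scale) of every tested gene of each list, with red points for adjusted p under 0.05 in the fit with the term for the third libraries, open points for the rest and black lines for medians. The 13 mitochondrial mRNAs lie between -1.57 and -0.44, while the 10 transcription and RNA maintenance genes lie between -0.21 and 0.72.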

How the data were processed

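RNA sequencing libraries of 3 VIM-AS1 overexpression and 3 control samples were compared. Per the submitters' processing notes, reads were processed with fastp, HISAT2 (hg38) and featureCounts. For the versions, annotation and strand setting: not given in the sources used here. Per the labels' protocols, libraries were made from total RNA with a NEBNext Ultra kit, whose name there does not mark it as strand-keeping. The deposited values are a signal per gene, namely counts divided by 1 factor per library: 100% of values in every library were whole multiples of 1 step within 0.01 read. Recovered reads numbered 14762893 to 19889745 per library, and 3 reads, the floor for a gene without reads, equal 2.37 to 3.67 normalized reads, for counting error only.

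Genes with a mean of at least 1 were tested with limma 3.58.1 (R 4.3.3) with an intensity trend on log2(value + 1), two-sided, with Benjamini-Hochberg adjustment over all 20927 tested genes at 0.05. Alternatives were edgeR 4.0.16 and DESeq2 1.42.0 on recovered reads, 3 scalings, 2 filters, a pseudocount of 0.1, removal of GC and length trends (splines with 5 degrees of freedom), a replicate block, each library left out, and, added after the values were seen, the first and second libraries alone and the block with the GC and length correction. Same-numbered libraries deviated together from their group means (Pearson r across 13175 genes of 0.32, 0.72 and 0.84 for numbers 1 to 3), which met the rule for treating numbers as pairs. However, VIM-AS1 replicate 1 correlated more with control replicate 2 (0.42), and control replicate 1 more with VIM-AS1 replicate 2 (0.33). Deviations within a group of 3 sum to 0, so a shift shared by the third libraries alone gives positive r among numbers 1 and 2. The rule therefore cannot show that numbers 1 and 2 are pairs. The labels do not say that numbers mark a shared batch. Members, lists and the term for the third libraries were chosen with earlier results of these data known. Named genes were all members, up to 3 called genes per list by size of change, the genes nearest to TFAM, and the mitochondrial genes. MRPL41, GABPB1, POLRMTP1 and genes that overlap a member were named outside that rule, after their values were seen. Levels per length (RPKM) used recovered reads and the union of exons in GENCODE 29.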

Additional observations from a re-analysis of the deposited data

How the results depend on the processing

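The number of members called with the term, 4, was 1 with library size scaling, 1 with scaling to reads outside the mitochondrial genome, 1 in the first and second libraries alone and 7 (6 higher, 1 lower) with the replicate block and GC and length trends removed, and ranged from 0 to 4 with a library left out. Without the term it was 0, against 2 with GC and length trends removed and 0 with any library left out. The replicate block also sets the third libraries apart, so its 4 members are not a result without the term. All genes called with the term numbered 4065, with 1101 in the first and second libraries alone and a range from 288 to 4493 with a library left out. Without the term 5 genes were called, against 28 with library size scaling, 48 with scaling to reads outside the mitochondrial genome and 17 without a filter. Also without it, 353 were called with DESeq2, 2283 with GC and length trends removed and 2 to 41 with a library left out. The replicate block called 5571 genes, and 5592 with GC and length trends removed as well. The difference in the share of mitochondrial reads ran from -6.56 to -3.80 percentage points with a library left out. Of 170 values of single members under alternatives 133 kept their direction and call, 25 lost a call, 6 gained one and 6 changed sign. The 133 include values of the 6 members that had no call to lose, so all 25 losses fell on the 4 that rose. With a library left out POLG kept its call in 5 of 6 fits, TFB2M and PNPT1 in 2 each and SUPV3L1 in 0. In the 11 other alternatives POLG kept it in 11, TFB2M and PNPT1 in 9 each and SUPV3L1 in 5. Those that changed sign were not called. With scaling to reads outside the mitochondrial genome POLRMT was -0.039 and TFB1M -0.018. With a library left out POLRMT ranged from -0.0075 to 0.21, TFB1M from -0.031 to 0.27 and TEFM from -0.018 to 0.57. The cause of these differences was not tested. Where replicate 3 of 1 group was left out of the fit with the term, that of the other group no longer bore on the estimate, which then rests on 2 libraries a group. The replicate block changed no call of a member made with the term. Depth limits TEFM most, with 22 to 100 reads in a library.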
